A study of Mus musculus with 10 samples.

Results

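The MLL::AF9 leukemias were set against normal cKit+ bone marrow over all genes. Members were chosen by sample label: 3 MLL::AF9 libraries and 2 WT libraries, 5 of the 10 libraries of the series. The leukemia cells came from spleen tumors of 3 MLL::AF9 mice (genotype MLL-AF9 +/-, C57BL/6, untreated, acute myeloid leukemia), enriched with magnetic antibodies against Mac1, Gr1 and cKit. The comparison cells were cKit+ bone marrow of 2 WT C57BL/6 mice, both labelled female. Each library came from 1 mouse, and the cells of all 5 had been cryopreserved. The study calls the MLL::AF9 mice transgenic, and the age of each mouse and the promoter that drives the fusion were not given in the sources used here. The other 5 libraries, 3 MLL::ENL tumors and 2 Cbfb::MYH11 tumors, helped estimate the spread between mice, and MLL::ENL served once as a comparison. The MLL::ENL tumors came from retrovirally transduced cells that were transplanted into lethally irradiated WT mice. The Cbfb::MYH11 mice had been given poly(I:C). Tissue, antibody selection and the fusion go together in every comparison with WT and cannot be told apart.

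MLL (Kmt2a) is a histone methyltransferase that keeps developmental genes active. In MLL::AF9 its amino-terminal part is joined to AF9 (Mllt3), a partner that recruits elongation factors and DOT1L. The fusion is known for holding the Hoxa genes and Meis1 active in myeloid progenitors. Normal cKit+ marrow is a mixture of stem and progenitor cells of red cells, platelets, granulocytes, mast cells, monocytes and lymphocytes. In bulk samples of this kind, fewer cells of a type and less RNA per cell cannot be told apart.

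The 3 tumor libraries are named 2, 47 and 42, and values are given in that order, followed by WT 1 and WT 2. Transcripts of the sex chromosomes matched the label in library 2 (male, 279 counts of Ddx3y and 5 of Xist) but went against it in the other two. The library labelled 47, a female, held 909 counts of Ddx3y and 5 of Xist, and the library labelled 42, a male, held 0 counts of Ddx3y and 3475 of Xist. Numbers 42 and 47 are also interchanged between names of the deposited tables, so the mouse behind each library is uncertain while its condition is not. Library totals were 16565703, 16759883 and 18688782 counts in the tumors, against 17953824 and 20510574 in WT. The mitochondrial genome took 10.2%, 2.59% and 2.23% of tumor counts, against 0.766% and 1.32% in WT. The 4 globin genes took 0.00841%, 0.00334% and 0.654%, against 14.4% and 3.98%. The 95% Wilson intervals of these shares span at most 0.0325 percentage points and cover counting error only. Among markers of the antibody selection, Itgam (CD11b, a chain of Mac1) was at 857, 367 and 688 CPM in the tumors, against 458 and 643 CPM in WT. Kit was at 31.3, 52.4 and 49.4 CPM, against 65.6 and 88.6 CPM. Neither passed by edgeR (adjusted p = 0.85 and 0.25), though Kit was below both WT libraries in every tumor. Both markers were present in all 5 libraries, which does not show equal levels in tumors and WT. CPM are counts per 1000000 of the scaled library total.

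By edgeR's quasi-likelihood test 429 of 14875 genes, 2.88%, passed an adjusted p under 0.05. Of these, 120 (0.807%) were higher and 309 (2.08%) lower in MLL::AF9 tumors than in WT cKit+ marrow. The tumors and the WT libraries did not overlap in any of the 429. Among all genes tested, every tumor lay above both WT libraries in 20.4% and below both in 21.2%. Counts of list members given below are to be read against these shares. With 2 WT libraries the calls leaned on each of them. Without WT 1 the test called 0 genes higher and 15 lower, and without WT 2 it called 8 higher and 87 lower. Without library 2 it called 189 and 256, without the library labelled 47 it called 87 and 163, and without the library labelled 42 it called 35 and 133. Without the 2 tumors labelled male the counts were 96 and 98, and without the 2 tumors that carry Y transcripts they were 38 and 31. In all 5 fits that leave out 1 library the test called the same 15 genes, all lower. They are Fcer1a, Epx, Ear1, Ear6, Alox15, Clca3a1, Vpreb1, Gfi1b, Uros, Glrx5, Rab27b, Rab4a, Sept8, Spire1 and Pigq. Clca3a1, Glrx5, Rab4a, Sept8, Spire1 and Pigq are members of no list and were named after their values were seen.

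**Figure D1:**
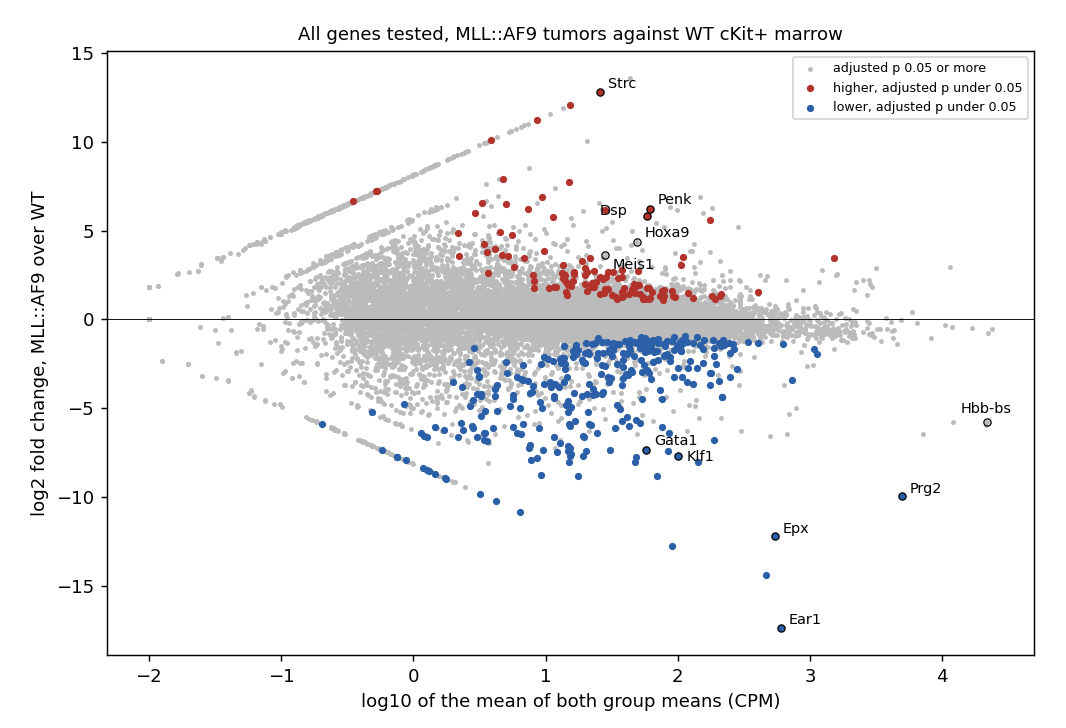
Each point is 1 of the 14875 genes tested, with the mean level of both groups on the x axis (log10 CPM) and the log2 fold change of MLL::AF9 over WT on the y axis, where red marks the 120 higher and blue the 309 lower genes by edgeR. Penk stands at a log2 fold change of 6.20 among the higher genes, while Prg2, Epx and Ear1 lie far below the other abundant genes.

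Penk, which encodes proenkephalin, the precursor of opioid peptides, had the largest increase among higher genes that averaged 10 counts or more in each group. It lies on chromosome 4 from 4133531 to 4138819 (mm10, as the deposited tables give it). Its level was 28.9, 165 and 170 CPM in the tumors, against 2.13 and 1.21 CPM in WT. Every tumor was above both WT libraries, and library 2 was the lowest of the tumors. By edgeR this was a log2 fold change of 6.20, with a standard error of 0.97 and an adjusted p = 0.017. Leaving out WT 1 or WT 2 ended the call (adjusted p = 0.19 and 0.094 by edgeR), and leaving out any 1 tumor did not (0.006 to 0.032). The call was also lost with only the 5 MLL::AF9 and WT libraries in the fit (0.051) and with limma-voom (0.073). Penk was the only 1 of 4 tested genes of opioid peptides, receptors and processing that passed. The opioid receptor genes Oprm1, Oprd1, Oprk1 and Oprl1 were too low to be tested, at no more than 0.849 CPM in any of the 5 libraries. Furin, a protease of the secretory pathway, was at 105, 93.3 and 145 CPM in the tumors, against 52.5 and 88.3 CPM in WT, and did not pass.

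The Hoxa genes, homeobox transcription factors of anterior-posterior identity, had log2 fold changes above 0 in all 10 members tested. Their levels differed among the tumors. Of 10 members tested, 2 were higher, Hoxa3 and Hoxa5, and 0 lower, and 6 had every tumor above both WT libraries. Over all genes tested 0.807% were higher and 20.4% had every tumor above both WT libraries. The median log2 fold change was 3.73, against 0.08 over all genes tested, and 3.63 with the 2 members absent from WT set to their bound. Hoxa9 was at 18.5, 214 and 46.8 CPM in the tumors, against 6.08 and 3.12 CPM in WT (log2 fold change 4.35, standard error 1.02, adjusted p = 0.054 by edgeR). Hoxa10 was at 3.82, 91.7 and 17.4 CPM, against 0.79 and 0.352 CPM (adjusted p = 0.053). Both cleared WT in every tumor while the library labelled 47 held the highest level, and neither passed. Hoxa5 was at 6.23, 15.5 and 4.44 CPM, against 0.632 and 0.754 CPM (log2 fold change 3.63, standard error 0.69, adjusted p = 0.032). Hoxa3 was at 3.54, 14.4 and 1.78 CPM, against 0.079 and 0.0503 CPM (log2 fold change 6.57, adjusted p = 0.031). These 2 calls were lost without WT 1 or WT 2 (up to adjusted p = 0.30 for Hoxa5 and 0.27 for Hoxa3) and kept without any 1 tumor. Both were also lost without the 2 tumors with Y transcripts, with only 5 libraries in the fit, with limma-voom and on TPM (up to 0.19), while DESeq2 called 6 members higher.

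Meis1, the homeobox partner of Hoxa9, was at 7.92, 96.6 and 52.5 CPM in the tumors, against 4.03 and 4.27 CPM in WT. All tumors were above WT, library 2 by less than the others, and the gene did not pass (log2 fold change 3.65, standard error 1.10, adjusted p = 0.092 by edgeR). Without library 2 both Hoxa9 and Meis1 passed (adjusted p = 0.024 and 0.042), and without WT 1 they were at 0.33 and 0.47. None of 10 genes of the TALE family, which holds Meis1 and the Pbx cofactors, passed by edgeR or limma-voom, with 3 at unadjusted p under 0.05 and 1 called by DESeq2. Pbx3 was low in all 5 libraries, at 1.49, 5.69 and 2.62 CPM in the tumors, against 2.69 and 2.92 CPM in WT.

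Of 14 further genes that MLL fusions are known to act on, 2 were higher and 1 lower, and the median log2 fold change was 2.02. Jmjd1c, a histone demethylase family gene, was at 53.9, 122 and 65.5 CPM in the tumors, against 14.9 and 26.9 CPM in WT (log2 fold change 1.95, standard error 0.41, adjusted p = 0.042 by edgeR). Cpeb2, an mRNA-binding regulator of translation, was nearly level among the tumors at 21.3, 20.1 and 21.3 CPM, against 8.06 and 7.995 CPM (log2 fold change 1.38, adjusted p = 0.0498). Zfp521, a zinc finger gene of early progenitors, was lower, at 0.0707, 0 and 0 CPM, against 0.79 and 1.11 CPM (adjusted p = 0.040). None of these 3 calls held without WT 1, without WT 2 or without the library labelled 47 or 42, and Jmjd1c and Zfp521 held without library 2 (adjusted p up to 0.34). Several classic targets took opposite sides of WT in different tumors. Cdk6, a cell cycle kinase, was at 56.8, 939 and 438 CPM, against 89.1 and 116 CPM. Myb, a progenitor transcription factor, was at 42.2, 376 and 209 CPM, against 121 and 137 CPM. Mecom (Evi1) was at 0.99, 0.0499 and 55.3 CPM, against 0.632 and 0.453 CPM in WT. Kmt2a itself was at 75.1, 70.5 and 61.9 CPM, against 12.8 and 23.1 CPM, and did not pass (adjusted p = 0.075). Counts of Kmt2a and Mllt3 cannot separate the fusion from the normal transcripts and are no check of the genotype.

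**Figure D2:**
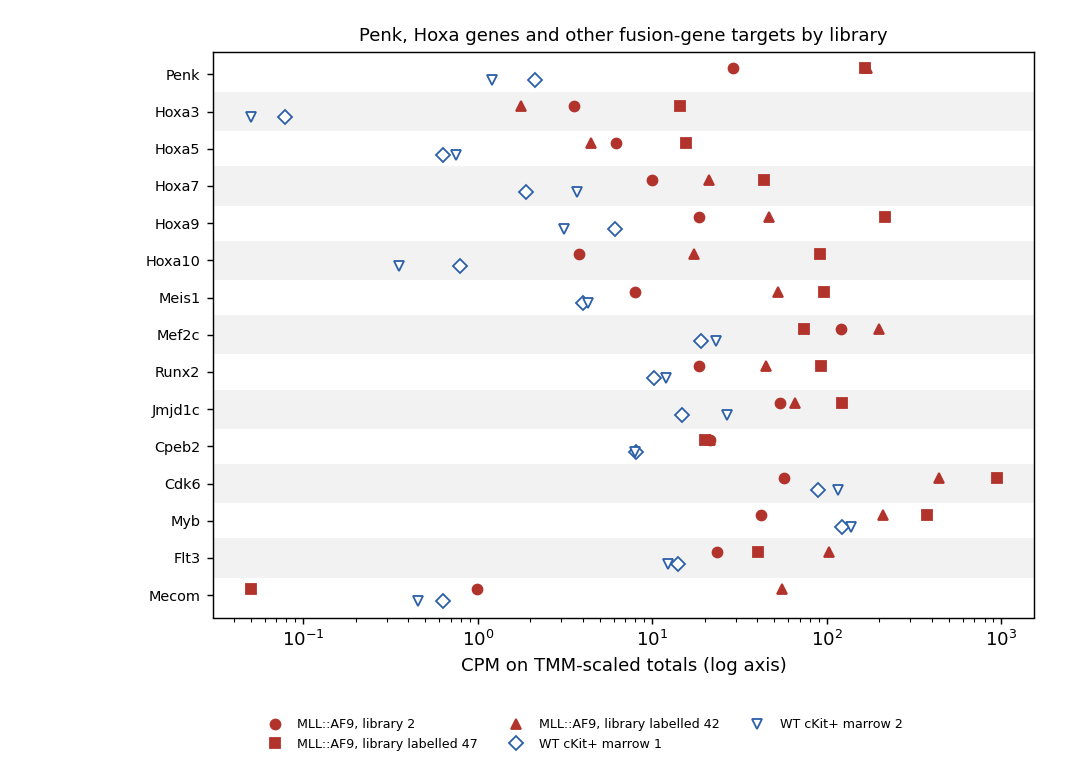
Levels of Penk, Hoxa genes, Meis1 and other fusion targets in CPM on a log axis, with red symbols for the 3 MLL::AF9 tumors and open blue symbols for the 2 WT libraries. Hoxa9 and Meis1 are above WT in all 3 tumors with library 2 closest to WT, and Cdk6, Myb and Mecom lie on both sides of WT.

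Red cell genes were low in all tumors, but by amounts that depended on the tumor. The erythroid program is driven by Gata1, Klf1, Tal1 and Gfi1b, which switch on globins, membrane proteins and heme enzymes. Of 12 erythroid transcription factors 3 were lower and 0 higher, with 9 below WT in every tumor and a median log2 fold change of −1.27. Over all genes tested 2.08% were lower and 21.2% had every tumor below both WT libraries. Klf1 (chromosome 8 from 84901928 to 84905291) was at 0.0707, 0.399 and 2.32 CPM in the tumors, against 250 and 151 CPM in WT (log2 fold change −7.69, standard error 1.00, adjusted p = 0.0071 by edgeR). Gata1 was at 0, 0 and 1.97 CPM, against 145 and 84.7 CPM (−7.36, adjusted p = 0.032). Gfi1b was at 0.141, 0.499 and 0.444 CPM, against 68.7 and 54.5 CPM (−7.33, adjusted p = 0.0035). Every tumor was far below both WT libraries, and the small remainder of Klf1 and Gata1 sat mainly in the library labelled 42. Gfi1b was called without any 1 library (adjusted p up to 0.036). Klf1 was not called without WT 1 (adjusted p = 0.068), nor Gata1 without WT 1 (0.20) or WT 2. Their partners Lmo2 and Ldb1, which myeloid progenitors also express, did not pass, with Lmo2 at 92.7, 462 and 280 CPM in the tumors, against 244 and 187 CPM in WT.

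All 23 tested genes of globins and the red cell membrane were below both WT libraries in every tumor, and 3 passed as lower. Among all genes tested, 21.2% were below in every tumor and 2.08% passed as lower. The summed level was 139, 103 and 6730 CPM in the tumors, against 210740 and 45932 CPM in WT, and the median log2 fold change was −5.38. Beta globin Hbb-bs was at 35.9, 9.53 and 2318 CPM, against 74399 and 11097 CPM, and did not pass (log2 fold change −5.76, standard error 2.07, adjusted p = 0.14 by edgeR). The band 3 anion exchanger Slc4a1 was at 0.92, 0.399 and 267 CPM, against 1347 and 996 CPM, and did not pass either. For both genes the library labelled 42 held far more than the other 2 tumors, and WT 1 more than WT 2. Without that tumor 4 globin genes and Slc4a1 passed (adjusted p = 0.0499 for Hbb-bt, 0.041 for Hbb-bs and 0.034 for Slc4a1). The 3 that passed were Epor, Car1 and Icam4. Epor, the erythropoietin receptor, was at 0, 0.0499 and 2.71 CPM in the tumors, against 82.9 and 49.6 CPM in WT (−6.11, adjusted p = 0.044). Car1, a carbonic anhydrase of red cells, was even across the tumors at 4.10, 2.84 and 3.21 CPM, against 460 and 286 CPM (−6.79, adjusted p = 0.017). Icam4, a blood group adhesion protein, was at 0, 0.199 and 1.78 CPM, against 55.1 and 31.4 CPM (−5.96, adjusted p = 0.040). Of these 3, the test still called 0 without WT 1, Car1 without WT 2 or without the library labelled 47, and Epor and Icam4 without the library labelled 42. Limma-voom called 15 of the list.

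By edgeR heme synthesis had the most members called of the lists tested, 8 of 13 lower and 0 higher, with a median log2 fold change of −2.71. Alad, the enzyme that makes porphobilinogen, was at 22.7, 16.3 and 17.7 CPM in the tumors, against 273 and 163 CPM in WT (−3.53, standard error 0.42, adjusted p = 0.0070 by edgeR). Fech, which inserts iron into the ring, was at 18.04, 35.9 and 49.3 CPM, against 461 and 292 CPM (−3.45, adjusted p = 0.0071). Uros was at 4.81, 5.74 and 6.56 CPM, against 71.3 and 43.1 CPM (−3.32, standard error 0.32, adjusted p = 0.0025). In these enzymes the 3 tumors lay close together, unlike in the globins. Cpox, Urod and the mitochondrial transporters Abcb10 and Tmem14c were also lower, with log2 fold changes between −3.68 and −1.66. The erythroid first enzyme Alas2 was at 2.62, 0.299 and 97.7 CPM in the tumors, against 2048 and 645 CPM in WT, and did not pass. Its housekeeping counterpart Alas1 was at 139, 697 and 427 CPM, against 270 and 278 CPM, on both sides of WT. The test called 1 of the 8 (Uros) without WT 1, 7 without WT 2, and 6 or 7 without any 1 tumor. Limma-voom called 10 members lower and DESeq2 11. Outside the lists, and named after their values were seen, Glrx5 and Isca1 of iron-sulfur assembly were lower too. Glrx5 was at 40.3, 49.7 and 52.3 CPM in the tumors, against 581 and 321 CPM in WT (−3.25, standard error 0.30, adjusted p = 0.0024).

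The eosinophil list had the lowest median of all lists. Eosinophils store Prg2 (major basic protein), the peroxidase Epx and ribonucleases of the Ear family in their granules. Of 10 genes tested 7 were lower and 0 higher, with a median log2 fold change of −9.01. Their summed level was 47.2, 75.8 and 15.9 CPM in the tumors, against 20797 and 8378 CPM in WT. Prg2 was at 8.21, 10.2 and 11.1 CPM in the tumors, against 14753 and 4957 CPM in WT (−9.97, standard error 1.30, adjusted p = 0.0071 by edgeR). Epx was at 0.283, 0.15 and 0.247 CPM, against 1141 and 1023 CPM (−12.20, standard error 0.72, adjusted p = 0.00081). Ear1 had 0 counts in each tumor, against 1625 and 780 CPM in WT, at least 20125-fold lower with 3 counts over the tumors as the floor. Epx and Ear1 were at or near 0 in every tumor, and Prg2 was still detected in each. The Ear genes are near-identical copies between which reads can be split, so single members are uncertain. Ear2 was at 28.2, 1.99 and 1.78 CPM in the tumors, against 1396 and 591 CPM in WT, and did not pass. Siglecf, a surface lectin, was at 7.07, 61.7 and 2.07 CPM, against 23.8 CPM in both WT libraries. Prg3, Ear6, the chemokine receptor Ccr3 and the lipoxygenase Alox15 were the other members called. Epx, Ear1, Ear6 and Alox15 were called without any 1 library. Prg2 was lost without WT 1 (adjusted p = 0.060), Prg3 without any 1 of the 5 libraries (0.071 to 0.28) and Ccr3 without WT 1, WT 2 or the library labelled 42 (up to 0.13). All 3 were also lost without the 2 tumors labelled male and without the 2 with Y transcripts, and DESeq2 gave Prg2 and Prg3 no adjusted p.

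Of 14 tested genes of mast cells and basophils 6 were lower and 0 higher, with a median log2 fold change of −2.47. Fcer1a and Ms4a2 encode chains of the high-affinity IgE receptor. Fcer1a had 0 counts in the tumors, against 14.9 and 11.01 CPM in WT, at least 227-fold lower by the same floor (adjusted p = 0.0054 by edgeR). Ms4a2 was at 1.13, 1.05 and 1.18 CPM, against 9.80 and 8.40 CPM (−3.01, standard error 0.52, adjusted p = 0.024). The protease Prss34 was at 0.849, 0.0997 and 0.0494 CPM, against 206 and 74.2 CPM (−8.84, adjusted p = 0.0061). All 3 fell below WT in every tumor. The test called 1 of the 6 (Fcer1a) without WT 1, 2 without WT 2 or without the library labelled 47 or 42, and 4 without library 2. Hdc, the enzyme that makes histamine, was at 252, 6.08 and 2.52 CPM in the tumors, against 223 and 286 CPM in WT. It was at the level of WT in library 2 and below it in the libraries labelled 47 and 42. The mast cell protease genes Tpsb2 and Tpsab1 were at or near 0 in all 5 libraries.

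Megakaryocyte and platelet genes were lower in 2 of 16 members tested and higher in 0, with a median log2 fold change of −2.75. In 14 members every tumor was below WT. The shares over all genes tested were 2.08% lower and 21.2% with every tumor below both WT libraries. Gp5, a platelet glycoprotein, was at 0, 0 and 0.444 CPM in the tumors, against 12.6 and 9.70 CPM in WT (−6.05, standard error 1.12, adjusted p = 0.030 by edgeR). Rab27b, a granule transport GTPase, had 0 counts in the tumors, against 2.69 and 4.42 CPM, at least 68-fold lower. Rab27b was called without any 1 library, and Gp5 was lost without WT 1 or WT 2 (adjusted p up to 0.19). Itga2b, the platelet integrin chain CD41, was at 1.84, 1.05 and 1.38 CPM, against 42.9 and 46.5 CPM, and did not pass (adjusted p = 0.053).

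Gata1 and Gata2 are zinc finger factors of these lineages that bind DNA at the core letters GATA. The 250 bases before each gene's start were read from RefSeq (GRCm38.p6) in the gene's own direction, 5′ to 3′, and searched on both strands for the motif AGATAA or the motif TGATAA. For Klf1 and Icam4 the RefSeq start lies inside the gene interval of the deposited tables, so their windows reach past the start those tables give. Such a match stood in 14 of the 23 lower members of the red cell, heme, mast cell, eosinophil and megakaryocyte lists that have a promoter entry (60.9%), and in 34 of all 73 members of those lists with an entry (46.6%). The share was 18.8% over all 27025 genes of the promoter table and 12.2% over the genes tested. It was 20.9% over all lower genes and 15.3% over all higher genes with an entry. The lists differed, with 64.7% for globins and red cell membrane and 50% each for erythroid transcription factors and for mast cells and basophils. It was 38.5% for megakaryocytes and platelets, 33.3% for eosinophils and 30% for heme synthesis. Among myeloid lists it was 0 of 8 genes of primary granules and 4 of 18 genes of later neutrophil granules (22.2%). For monocyte genes it was 3 of 14 (21.4%). A match is a description of the letters and not a binding site. The windows of 7 lower genes from 4 of the lineages are shown because each holds a match, with the match in capitals. On the other strand AGATAA reads as TTATCT, while TGATAA reads as TTATCA.
Klf1, chr8:84901732-84901981, plus strand: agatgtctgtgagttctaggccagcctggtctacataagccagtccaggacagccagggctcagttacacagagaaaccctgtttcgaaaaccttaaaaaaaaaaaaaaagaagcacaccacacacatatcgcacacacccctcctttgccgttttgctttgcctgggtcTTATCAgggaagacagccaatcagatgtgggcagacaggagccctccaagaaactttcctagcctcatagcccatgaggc
Epor, chr9:21963577-21963826, minus strand: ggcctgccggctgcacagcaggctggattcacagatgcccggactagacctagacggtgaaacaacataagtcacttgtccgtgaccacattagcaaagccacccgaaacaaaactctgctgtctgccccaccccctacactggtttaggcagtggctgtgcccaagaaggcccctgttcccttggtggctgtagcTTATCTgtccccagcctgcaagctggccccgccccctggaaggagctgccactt
Icam4, chr9:21029182-21029431, plus strand: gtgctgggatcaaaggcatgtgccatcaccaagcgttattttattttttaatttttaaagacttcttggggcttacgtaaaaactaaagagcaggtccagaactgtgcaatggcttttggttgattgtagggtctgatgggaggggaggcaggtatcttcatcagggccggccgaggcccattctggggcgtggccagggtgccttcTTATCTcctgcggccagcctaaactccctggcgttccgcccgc
Prg3, chr2:84987965-84988214, plus strand: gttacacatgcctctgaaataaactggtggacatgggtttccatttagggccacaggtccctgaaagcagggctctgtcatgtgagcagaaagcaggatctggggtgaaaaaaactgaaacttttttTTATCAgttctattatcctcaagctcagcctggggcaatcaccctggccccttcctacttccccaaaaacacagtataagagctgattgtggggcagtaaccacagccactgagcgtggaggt
Ms4a2, chr19:11623720-11623969, minus strand: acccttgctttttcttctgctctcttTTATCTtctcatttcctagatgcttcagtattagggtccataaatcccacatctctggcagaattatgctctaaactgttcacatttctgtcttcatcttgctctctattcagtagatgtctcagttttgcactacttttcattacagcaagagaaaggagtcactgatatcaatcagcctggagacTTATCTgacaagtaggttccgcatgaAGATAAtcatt
Fcer1a, chr1:173227230-173227479, minus strand: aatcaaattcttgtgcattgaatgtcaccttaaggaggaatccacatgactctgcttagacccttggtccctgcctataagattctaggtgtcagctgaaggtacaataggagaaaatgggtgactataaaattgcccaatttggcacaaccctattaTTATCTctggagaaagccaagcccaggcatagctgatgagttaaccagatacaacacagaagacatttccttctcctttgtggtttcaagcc
Gp5, chr16:30310782-30311031, minus strand: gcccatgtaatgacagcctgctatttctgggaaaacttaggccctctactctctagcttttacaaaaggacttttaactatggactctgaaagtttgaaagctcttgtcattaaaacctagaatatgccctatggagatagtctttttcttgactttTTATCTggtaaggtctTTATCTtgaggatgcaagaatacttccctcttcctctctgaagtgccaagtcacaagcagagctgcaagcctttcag
Ms4a2 holds 3 matches and Gp5 holds 2, and the other 5 windows hold 1 each.

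**Figure D3:**
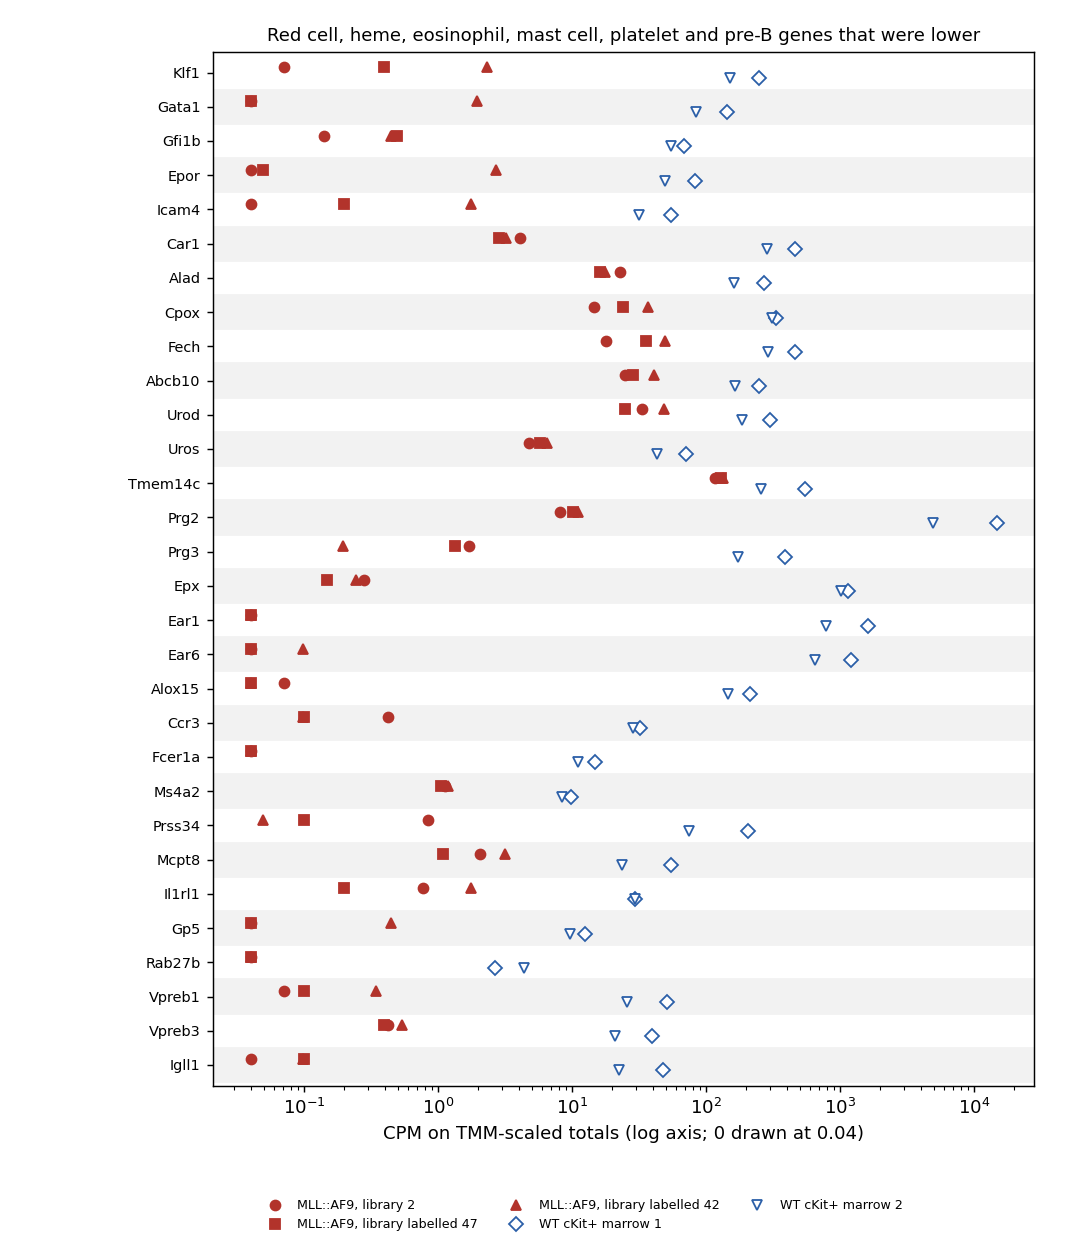
Levels of the lower red cell, heme, eosinophil, mast cell, platelet and pre-B genes in CPM on a log axis (0 drawn at 0.04), with red symbols for the 3 MLL::AF9 tumors and open blue symbols for the 2 WT libraries. No gene overlaps between groups, and heme enzymes lie closer to WT than eosinophil genes such as Epx and Ear1.

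Some genes of B cell precursors were lower, while mature B cell genes were scattered. Vpreb1 and Igll1 encode parts of the surrogate light chain of the pre-B cell receptor, and Vpreb3 is named as a pre-B lymphocyte gene. Of 8 precursor genes these 3 were lower and 0 higher, and the median log2 fold change was −6.64 (−5.53 with the member absent from the tumors at its bound). Vpreb1 was at 0.0707, 0.0997 and 0.345 CPM in the tumors, against 50.8 and 25.5 CPM in WT (−7.69, standard error 0.73, adjusted p = 0.0025 by edgeR). Rag1, a recombinase of lymphoid precursors, was at 0.495, 0 and 0 CPM, against 26.5 and 19.9 CPM, and did not pass. The 3 calls were kept without WT 2 or any 1 tumor, and without WT 1 only Vpreb1 was called. Of 15 mature B cell genes 0 passed by edgeR or limma-voom, with 2 at unadjusted p under 0.05 and 2 called higher by DESeq2. Pax5, the B cell master factor, was at 195, 1.90 and 50.3 CPM in the tumors, against 14.4 and 24.2 CPM in WT. Ighm, the IgM heavy chain, was at 2757, 167 and 5115 CPM, against 618 and 325 CPM. Library 2 and the library labelled 42 carried B cell transcripts at or above WT, and the library labelled 47 carried few.

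The summed level of T cell genes was highest in library 2. The 19 T cell genes summed to 530, 36.4 and 61.4 CPM in the tumors, against 55.2 and 37.2 CPM in WT, and the median log2 fold change was 2.98. The receptor chain Cd3e was at 30.6, 0.15 and 3.36 CPM, against 0.711 and 0.553 CPM, and Trbc1 was at 44.9, 0.349 and 2.67 CPM, against 1.11 and 0.302 CPM. Neither passed. The single T cell gene that passed did not follow them. Bcl11b, a transcription factor of T cell commitment, was at 15.1, 23.3 and 4.79 CPM in the tumors, against 0.237 and 0.151 CPM in WT (log2 fold change 6.20, standard error 1.05, adjusted p = 0.023 by edgeR). It was highest in the library labelled 47, where Cd3e, Cd3g, Trbc1 and Cd8a were each under 0.35 CPM, and its call was lost without WT 1 or WT 2 (adjusted p up to 0.22). Of 12 NK cell genes 0 passed by edgeR, DESeq2 or limma-voom, with 1 at unadjusted p under 0.05.

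Granule genes of neutrophils spanned the range of WT. Of 10 genes of primary granules and promyelocytes, and of 20 genes of later granules, 0 passed by edgeR, DESeq2 or limma-voom, and 0 were at unadjusted p under 0.05. The 2 lists had medians of −0.24 and −0.68, and the tumors themselves lay far apart. Elane, neutrophil elastase, was at 584, 6780 and 4119 CPM in the tumors, against 3997 and 3389 CPM in WT. S100a8, a calprotectin chain of later neutrophils, was at 37027, 2682 and 9659 CPM, against 37755 and 18746 CPM. Ly6g was at 317, 2.94 and 11.2 CPM, against 333 and 204 CPM. Library 2 was the lowest tumor for Elane and the highest for S100a8 and Ly6g, but other members did not follow this order. Fcnb, a ficolin of the first list, was at 564, 39.5 and 380 CPM in the tumors, against 504 and 372 CPM in WT. Olfm4, a glycoprotein of specific granules in the second list, was at 44.9, 1056 and 1304 CPM in the tumors, against 168 and 122 CPM in WT, without passing.

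Of 18 monocyte genes 16 had a log2 fold change above 0. By edgeR or limma-voom 0 passed, with 10 at unadjusted p under 0.05 and 9 called higher by DESeq2. The median log2 fold change was 1.59, and 7 members had every tumor above both WT libraries (20.4% of all genes tested did). The summed level was 15927, 2114 and 9148 CPM in the tumors, against 10478 and 6760 CPM in WT. This sum lay below both WT libraries in the library labelled 47 and between them in the library labelled 42. Csf1r, the receptor of macrophage colony-stimulating factor, was at 169, 138 and 287 CPM in the tumors, against 66.4 and 70.0 CPM in WT (log2 fold change 1.54, adjusted p = 0.077 by edgeR). Ccr2, the homing receptor of inflammatory monocytes, was at 176, 66.3 and 230 CPM, against 35.7 and 42.5 CPM (2.01, adjusted p = 0.066). Mpeg1 was at 603, 254 and 743 CPM, against 152 and 182 CPM (1.67, adjusted p = 0.066). Csf1r, Ccr2 and Mpeg1 are among those 7 members, each with all tumors above WT and the library labelled 47 lowest. Of the granulocyte-macrophage receptor chains, Csf2ra was higher, at 260, 269 and 266 CPM in the tumors, against 134 and 102 CPM in WT (1.17, standard error 0.26, adjusted p = 0.0487). The integrin Itgax (CD11c) was higher too, at 40.6, 21.8 and 23.1 CPM, against 3.40 and 5.63 CPM (2.65, standard error 0.57, adjusted p = 0.044). Both calls were lost without any 1 of the 5 libraries (adjusted p up to 0.35). MHC class II genes were above 0 on the log2 scale in all 10 members with a median of 2.15, and 0 passed by edgeR or limma-voom, with 4 at unadjusted p under 0.05 and 3 called by DESeq2. Cd74, the invariant chain, was at 3828, 509 and 1313 CPM, against 590 and 284 CPM, again with library 2 highest.

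Some genes of resident macrophages and marrow stroma were lower. Of 10 endothelial and stromal genes 2 passed as lower, Stab2 and Cxcl12, and 0 as higher. Of 19 macrophage genes 3 passed as lower and 16 were below WT in every tumor, with a median log2 fold change of −2.61. Over all genes tested 2.08% passed as lower and 21.2% had every tumor below both WT libraries. Mrc1, the mannose receptor, was at 0.707, 0.848 and 1.53 CPM in the tumors, against 19.7 and 24.6 CPM in WT (−4.41, standard error 0.59, adjusted p = 0.0080 by edgeR). Vcam1, an adhesion molecule of marrow macrophages and stroma, was at 9.41, 31.4 and 12.2 CPM, against 146 and 190 CPM (−3.25, adjusted p = 0.044), and Timd4 had 0 counts in the tumors. Cxcl12, the stromal chemokine that retains stem cells in marrow, was at 0.778, 0.349 and 0.0987 CPM, against 48.0 and 28.0 CPM (−6.58, standard error 0.95, adjusted p = 0.012). Without WT 1 the test called none of these 4 (adjusted p = 0.068 for Mrc1 and 0.097 for Cxcl12). Without WT 2, library 2 or the library labelled 42 it no longer called Vcam1 (up to 0.23), and without WT 2 or the library labelled 47 or 42 it no longer called Timd4 (up to 0.27). The call of Stab2 was lost without WT 1, WT 2, library 2 or the library labelled 42. The part of macrophage and stromal transcripts in other differences was not tested.

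**Figure D4:**
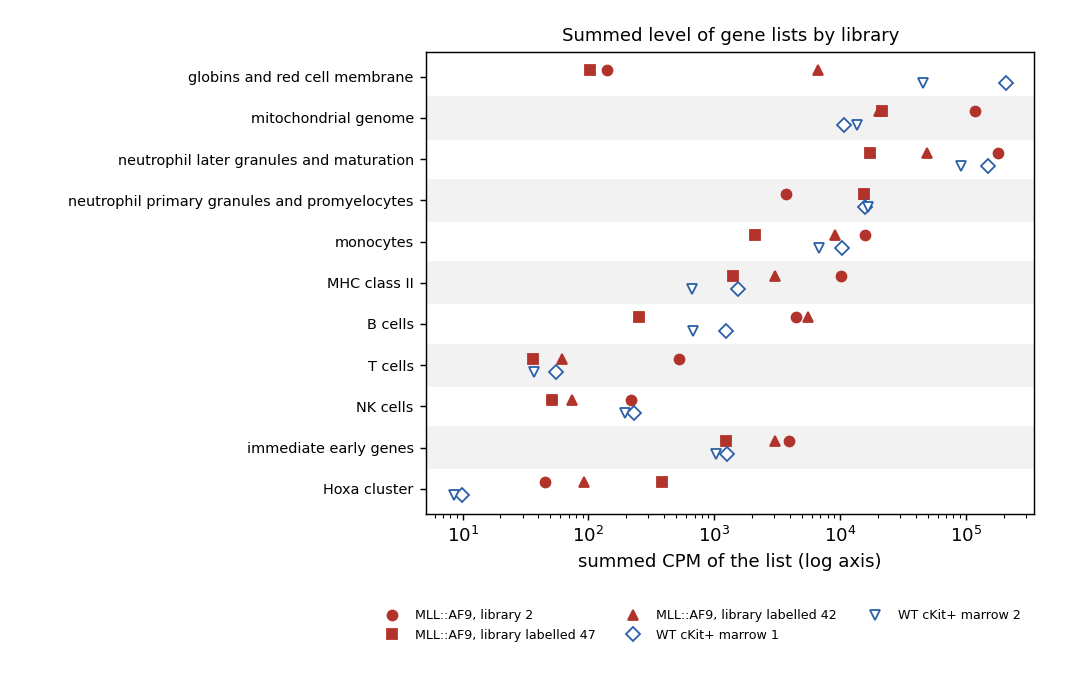
Summed levels of 11 gene lists in CPM on a log axis, with red symbols for the 3 MLL::AF9 tumors and open blue symbols for the 2 WT libraries. Library 2 is highest of the tumors for the mitochondrial genome, later neutrophil and T cell genes and lowest for primary granule and Hoxa genes.

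Library 2 differed from each of the other tumors by more than the WT libraries differed from each other, and the tumors labelled 47 and 42 did not. The median absolute difference of log2(CPM + 1) over the genes tested was 0.55 between library 2 and the library labelled 47, 0.45 between 2 and 42, and 0.36 between 47 and 42, against 0.37 between the 2 WT libraries. Of 3718 genes with a mean of at least 50 CPM over the tumors, 131 spanned over 8-fold among them. Library 2 was the highest in 78 of these, and the library labelled 47 the lowest in 86. Apart from globins and Slc4a1, the 10 widest ranges were of immunoglobulin segments and 2 other genes. The light chain segment Igkv6-17 was at 795, 0.15 and 0.592 CPM in the tumors, against 44.9 and 11.7 CPM in WT. Heavy chain segment Ighv14-4 was at 0.141, 0.0499 and 585 CPM, against 4.82 and 0.754 CPM, and Ighv5-4 was at 460, 1.55 and 0.395 CPM, against 6.08 and 2.31 CPM. These segments were chosen for their wide range among the tumors. Hpgd, which degrades prostaglandins, was at 4.10, 1162 and 504 CPM in the tumors, against 19.6 and 11.1 CPM in WT. BC100530, of the stefin protease inhibitor cluster, was at 2.48, 860 and 8.09 CPM, against 2.53 and 2.31 CPM. Hpgd passed without library 2 (adjusted p = 0.011 by edgeR) and in no other fit that leaves out 1 library (up to 0.47).

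Transcripts of the mitochondrial genome were above WT in the summed level of every tumor, at 119500, 21611 and 20611 CPM, against 10867 and 13574 CPM in WT. The median log2 fold change of its 15 members was 1.97, all 15 were above 0, and 9 had every tumor above both WT libraries. None passed by edgeR or limma-voom, with 5 at unadjusted p under 0.05 and 5 called higher by DESeq2. The cytochrome oxidase subunit mt-Co1 was at 44167, 7750 and 8523 CPM in the tumors, against 1989 and 3129 CPM in WT (log2 fold change 2.98, adjusted p = 0.11 by edgeR). The ribosomal RNA mt-Rnr2 was at 4083, 142 and 431 CPM, against 1302 and 1244 CPM, so 2 tumors were below WT in that transcript. Library 2 set the upper end of both. Nuclear genes of the same complexes lay on the other side of 0. All 37 nuclear subunits of complex I had a log2 fold change below 0 (median −0.90), 3 passed as lower and 19 were below WT in every tumor. All 38 subunits of complexes II to V did too (median −0.86), with 2 lower. Over all genes tested 2.08% were lower, 20.4% had every tumor above both WT libraries and 21.2% had every tumor below. Ndufv1, the NADH-binding subunit, was at 68.8, 71.4 and 82.9 CPM in the tumors, against 265 and 205 CPM in WT (−1.66, standard error 0.26, adjusted p = 0.018). Its call and that of Ndufa9, Ndufa5, Cyc1 and Atp5o were lost without WT 1 or WT 2 (adjusted p up to 0.34), and all but that of Ndufv1 also without the library labelled 47 or 42. Chchd10, a protein of the intermembrane space, was lower at 7.29, 3.24 and 15.3 CPM, against 94.7 and 49.98 CPM (−3.07, standard error 0.55, adjusted p = 0.029, and up to 0.27 without WT 1 or WT 2). Mitochondrial ribosomal proteins had 2 of 75 lower (median −0.77), a share near that over all genes tested. Of 81 cytosolic ribosomal proteins 0 passed by edgeR (median −0.74, 27 at unadjusted p under 0.05, 4 lower by DESeq2 and 1 by limma-voom). For most of these genes WT 1 was well above WT 2. On the TPM scale the median log2 difference of all genes moved to 0.46 from the 0.08 of the count fit, and none of the nuclear mitochondrial subunits passed there.

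Cell cycle genes lay below WT in the median, and single genes of DNA demethylation, growth arrest and survival passed. Of 22 DNA replication genes 2 were lower (Rrm1 and Fen1), all 22 log2 fold changes were below 0, and the median was −0.78. Rrm1, a ribonucleotide reductase subunit, was at 146, 253 and 196 CPM in the tumors, against 439 and 514 CPM in WT (−1.27, standard error 0.28, adjusted p = 0.045 by edgeR). Cyclin E1 (Ccne1) was at 14.8, 20.7 and 17.8 CPM, against 104 and 70.9 CPM (−2.30, standard error 0.29, adjusted p = 0.0071, lost without WT 1 at 0.097, without the 2 tumors labelled male at 0.064, without the 2 with Y transcripts at 0.083 and on TPM at 0.16). Cdkn2a, which encodes the p16 and p19 inhibitors, was higher at 6.01, 9.33 and 4.39 CPM, against 0.158 and 0.503 CPM (4.23, standard error 0.82, adjusted p = 0.032). Tet2, a methylcytosine dioxygenase often mutated in leukemia, was higher at 27.8, 36.96 and 36.1 CPM, against 4.74 and 6.94 CPM (2.52, standard error 0.44, adjusted p = 0.026). Itpr3, a calcium channel of the endoplasmic reticulum, was higher at 32.5, 42.9 and 32.9 CPM, against 7.35 and 10.4 CPM (2.03, standard error 0.44, adjusted p = 0.044). The survival gene Bcl2l1 (BCL-XL) was lower at 25.2, 23.2 and 27.3 CPM, against 84.6 and 72.4 CPM (−1.64, standard error 0.35, adjusted p = 0.044), while Bcl2 was at 83.3, 15.9 and 44.0 CPM, against 9.56 and 12.5 CPM, without passing. In all of these that passed the 3 tumors lay clear of WT. The calls of Rrm1, Fen1, Cdkn2a, Tet2, Itpr3 and Bcl2l1 were each lost without WT 1, without WT 2 and without the library labelled 42, and some without other tumors (adjusted p up to 0.35).

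Of higher genes outside the lists, Ifi213, an interferon-activated gene, was at 29.9, 125 and 11.8 CPM in the tumors, against 0.711 and 0.805 CPM in WT (log2 fold change 6.18, standard error 1.31, adjusted p = 0.043 by edgeR). Its call was lost without WT 1, WT 2 or the library labelled 47, without the 2 tumors with Y transcripts, with only 5 libraries in the fit and with limma-voom (adjusted p up to 0.34). Dsp, the desmosome protein desmoplakin, was at 6.58, 167 and 175 CPM in the tumors, against 1.42 and 2.66 CPM in WT (log2 fold change 5.80, standard error 1.30, adjusted p = 0.048 by edgeR). Baz2b, a chromatin reader, was at 61.0, 365 and 179 CPM, against 12.96 and 21.7 CPM (3.54, adjusted p = 0.039). F10, coagulation factor X, was at 66.0, 259 and 241 CPM, against 16.7 and 29.1 CPM (3.04, adjusted p = 0.037). In Dsp, Baz2b and F10, as in Penk, library 2 was the lowest tumor. Cfb, complement factor B, was even across tumors at 20.1, 18.4 and 16.1 CPM, against 1.66 and 0.855 CPM (3.87, standard error 0.55, adjusted p = 0.011). Pde1b, a cyclic nucleotide phosphodiesterase, was at 52.6, 35.96 and 31.3 CPM, against 2.29 and 4.78 CPM (3.48, standard error 0.53, adjusted p = 0.016). Skida1 was at 1.34, 78.2 and 12.1 CPM in the tumors and had 0 counts in WT, at least 365-fold higher with 3 counts over the WT libraries as the floor. Strc, at 73.5, 55.0 and 27.5 CPM in the tumors and 0 counts in WT, was at least 538-fold higher, and reads of its near-identical pseudogene may be counted with it. The calls of Dsp, Baz2b, F10 and Strc were lost without WT 1, WT 2 or the library labelled 47 or 42, that of Cfb without WT 1 or WT 2, that of Skida1 without WT 1, WT 2 or the library labelled 42, and that of Pde1b without WT 1 (adjusted p up to 0.37). Strc was lost without library 2 as well. The other genes of the 12 largest increases were Lifr, Ttll3, Olfm1 and Clec2i, with Penk and Hoxa5. Limma-voom called 5 of the 12 and DESeq2 12. Of these 12 calls, 0 held without WT 1, 1 without WT 2, 10 without library 2, 7 without the library labelled 47 and 6 without the library labelled 42. Of the 12 largest decreases (Prg2, Prg3, Klf1, Gata1, Car1, Hemgn, Epor, Igkv16-104, Samd14, Icam4, Sdsl and Dmtn) 0, 4, 8, 6 and 7 held in the same order.

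**Figure D5:**
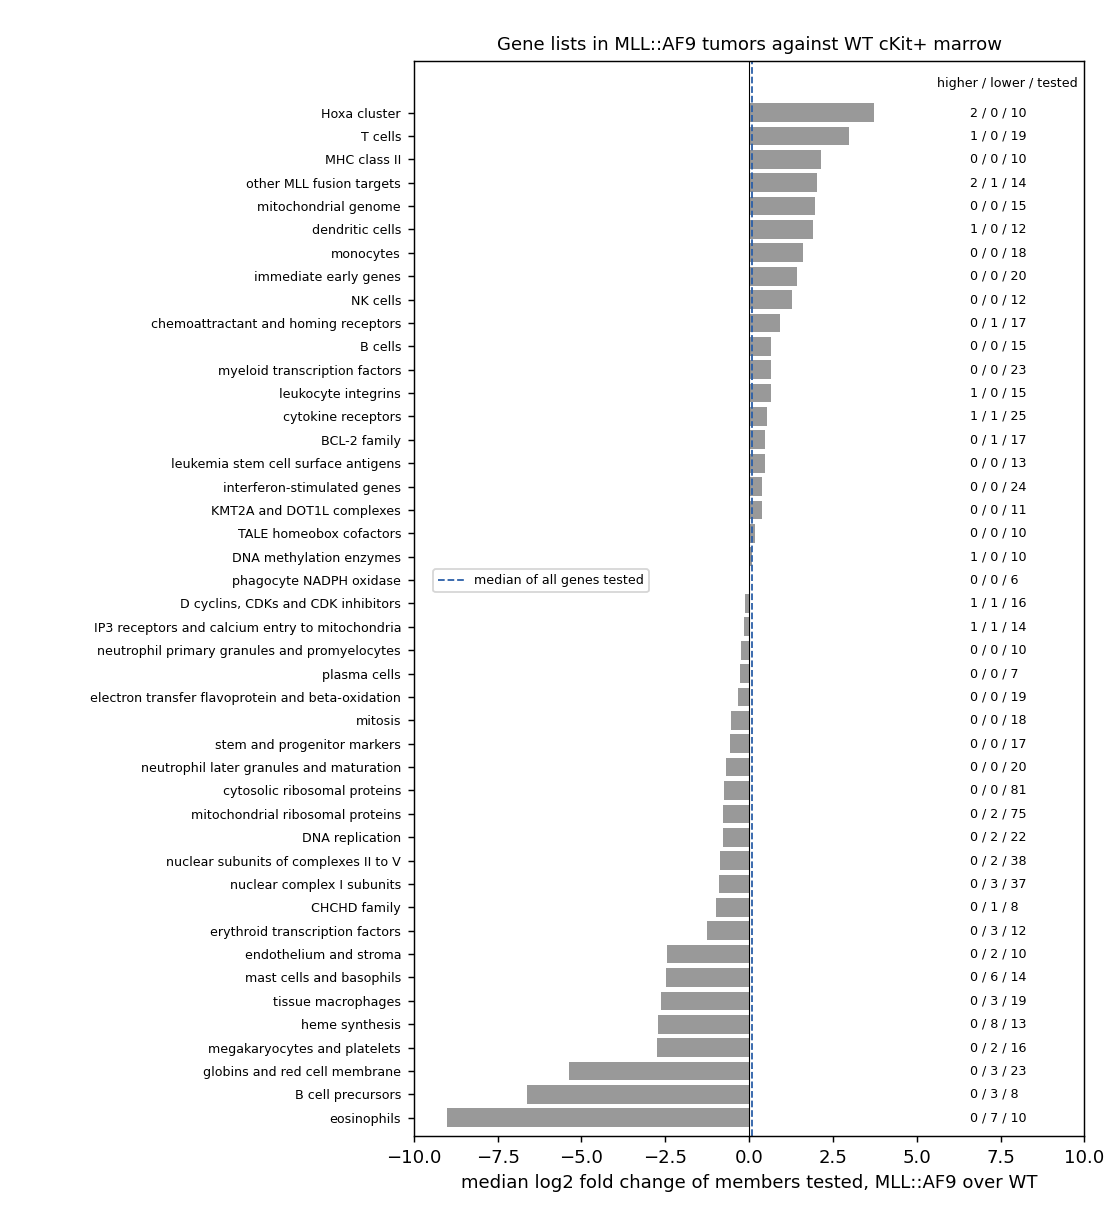
Median log2 fold change of MLL::AF9 over WT for the gene lists (bars), with the dashed line at the median of all genes tested, 0.08, and the numbers of members higher, lower and tested at the right. Eosinophil, B cell precursor and red cell lists lie lowest and the Hoxa list highest of the lists drawn, and most lists have 0 to 3 members called.

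MLL::AF9 was also compared with MLL::ENL, the leukemia model most like it, by the same test. Few calls at this number of mice do not show that the 2 models are alike. Only 2 genes (0.0134% of 14875) passed, both higher, with 1514 at unadjusted p under 0.05, 407 higher and 98 lower by DESeq2 and 0 by limma-voom. Dpp4, the surface peptidase CD26, was at 34.2, 34.3 and 29.1 CPM in MLL::AF9, against 4.46, 3.52 and 5.42 CPM in MLL::ENL (log2 fold change 2.86, standard error 0.32, adjusted p = 0.037 by edgeR). Hoxa9 was at 18.5, 214 and 46.8 CPM in MLL::AF9, against 149, 191 and 173 CPM in MLL::ENL, and Penk was at 28.9, 165 and 170 CPM, against 530, 305 and 145 CPM. Neither passed, and the MLL::ENL tumors were the more even for Hoxa9. How the tumors were made goes with the fusion here too. Without the library labelled 47, 123 genes were higher and 19 lower than in MLL::ENL, and without any 1 MLL::ENL library 0 genes passed. Neither of the 2 calls held without the library labelled 42.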

How the data were processed

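RNA from 10 mice, 1 library each, was extracted from cryopreserved cells and made into libraries by Illumina protocols. Per the labels and methods, the authors checked reads with FastQC, used STAR for alignment to mouse build mm10, and took gene values from RSEM. Versions and the annotation release were not given in the sources used here. Each table the authors deposited gives 50600 gene entries, with expected counts beside TPM and FPKM. Of these entries, 185 share a name with another entry and were numbered. The FPKM were not used. RSEM shares reads of similar genes among copies, so single members of families are uncertain.

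Expected counts as deposited were rounded and tested with edgeR 4.0.16 (R 4.3.3): TMM scaling, filterByExpr by group, glmQLFit and glmQLFTest in 1 fit of all 10 libraries with 6 residual degrees of freedom, and Benjamini-Hochberg adjustment over 14875 genes. Standard errors are the log2 fold change over the square root of F. Alternatives were RLE scaling, no filter, 5 libraries only, abundant genes left out, DESeq2 1.42.0, limma-voom (limma 3.58.1), limma-trend on log2(TPM + 1) of the TPM the authors deposited, and leaving out each library. Leaving out the 2 tumors with Y transcripts was chosen after seeing the data. Where 1 tumor or WT library was left, it was assumed to vary like the other groups. On simulated counts with 14275 genes in the fit, the test recovered 22% of 4-fold, 80% of 8-fold, 94% of 16-fold and 100% of 32-fold changes of 50 genes each. The simulation gave every gene the same spread and added no other differences between groups. Only genes that averaged at least 100 counts were changed, so recovery in the real data can differ.

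Members and gene lists were chosen with earlier results of these data known, so lists are described by counts and medians with no set test. Named genes are the 4 markers (Hoxa9, Meis1, Penk and Klf1), the 12 largest increases and 12 largest decreases among calls without overlap between groups whose lower group averaged 10 counts or more, the 8 largest each way without that minimum, list members, genes that differ from MLL::ENL, and the 10 widest ranges among tumors with a mean of at least 50 CPM. Some list members are counted but not reported here by name. Predicted genes were skipped, except among members of lists and the 4 markers. Promoters came from RefSeq (GRCm38.p6). Genes at 0 in a group have a fold bound at 3 counts over the group.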

Additional observations from a re-analysis of the deposited data

Results flagged for a closer look

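For 2 genes the difference from WT itself differed between the 2 MLL fusion models, tested as MLL::AF9 against MLL::ENL in the shared edgeR fit. For Dpp4 the difference of log2 fold changes was 2.86 (standard error 0.32, adjusted p = 0.037 by edgeR). Its levels were 34.2, 34.3 and 29.1 CPM in MLL::AF9 tumors and 4.46, 3.52 and 5.42 CPM in MLL::ENL tumors, with 9.72 and 15.2 CPM in WT. Dpp4 did not pass in MLL::AF9 against WT (log2 fold change 1.38, adjusted p = 0.061). For the predicted gene Gm9008 the difference was 9.48 (standard error 1.03, adjusted p = 0.037 by edgeR), with 8.91, 28.3 and 18.8 CPM in MLL::AF9 tumors and 0, 0 and 0.0521 CPM in MLL::ENL tumors. Without any 1 MLL::ENL library neither gene passed, nor did either without the library labelled 42 or with limma-voom. Without library 2 only 1 of the 2 passed. Both were higher in 3 of 3 MLL::AF9 tumors than in any MLL::ENL tumor. They were picked by this same comparison, so the lack of overlap adds no separate evidence.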

How the results depend on the processing

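The 120 higher and 309 lower genes against WT became 449 and 582 with no filter on low counts, 21 and 110 with only the 5 MLL::AF9 and WT libraries in the fit, 1085 and 853 with DESeq2, and 148 and 565 with limma-voom. They were 155 and 214 with limma-trend on TPM, where 42% of calls were higher, against 28.0% in the count fit and 56.0% by DESeq2. RLE scaling gave 136 and 293, and leaving out abundant genes 118 and 301. Without the 2 tumors labelled male 98 genes were lower, and without the 2 tumors with Y transcripts 38 were higher and 31 lower. Leaving out 1 library gave 0 to 189 higher and 15 to 256 lower. Of genes called here, 113 higher and 302 lower ones were also called without the filter, and 119 and 305 by DESeq2.

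Genes of the lists numbered 11 higher and 51 lower, then 47 and 101 with no filter, 2 and 27 with 5 libraries, 82 and 123 with DESeq2, and 7 and 95 with limma-voom. On TPM 17 were higher. Without the 2 tumors labelled male 27 were lower, and without the 2 with Y transcripts 13. Leaving out 1 library gave 0 to 18 higher and 9 to 55 lower. Of the 62 called, 26 were also called with 5 libraries, 54 with limma-voom, 31 on TPM, 24 without the 2 tumors labelled male, 12 without the 2 with Y transcripts, and 60 by DESeq2, which gave the other 2 no adjusted p.

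Against MLL::ENL, 2 genes higher and 0 lower became 238 and 61 with no filter, 407 and 98 with DESeq2, 0 and 0 with limma-voom, and 22 and 10 on TPM. Leaving out 1 library gave 0 to 123 higher and 0 to 19 lower.

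Of single genes under all alternatives, 848 results kept direction and side of the threshold, 477 lost the call, 31 gained it and 10 turned. All 10 were results of the immunoglobulin segments Igkv6-17, Ighv14-4 and Ighv5-4, which did not pass with all libraries in the fit. Over the edgeR fits without 1 library the lowest adjusted p of Igkv6-17 was 0.036. Igkv6-17 (3.23) was −7.50 without the 2 tumors labelled male, −5.55 without the 2 with Y transcripts, −6.21 without library 2, −2.86 with limma-voom and −1.65 on TPM. Ighv14-4 (6.17) was −5.61 without the 2 labelled male and −4.81 without the library labelled 42. Ighv5-4 (5.21) was −1.45 without the 2 labelled male, −3.38 without the 2 with Y transcripts and −2.11 without library 2. Over the fits without 1 library the highest values were 4.46, 8.01 and 6.01 in the same order. The fits with fewer tumors leave out the tumor that held the segment. On TPM and with limma-voom the cause was not tested.

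No paired analysis was possible because the MLL::AF9 and WT libraries came from different mice and the labels name no pairs. With 2 WT libraries, the simulation with the same spread for every gene recovered 22% of 4-fold changes. Smaller differences may often have been missed at this number of mice.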
